A study of Rattus norvegicus with 22 samples.

Results

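The pore-forming and auxiliary subunits of voltage-gated sodium channels were followed in dCINs, MNs and random ventral horn cells of the neonatal rat spinal cord. The members were all probe sets whose gene symbol in the platform annotation is Scn1a, Scn2a, Scn3a, Scn8a, Scn9a, Scn10a, Scn11a or Scn2b. There were 11 such probe sets for 8 genes, of 1050 probe sets in the deposited table. Scn3a, Scn8a and Scn9a had 2 probe sets each and the others 1, and each probe set was kept apart.

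Messenger RNA of laser microdissected cells was measured on Affymetrix RN_U34 arrays, each array with amplified RNA from another neonatal animal, Wistar rats of one strain in all groups. The groups were descending commissural interneurons (dCINs, labelled CIN; 7 arrays of 50 to 100 cells), motor neurons (MNs; 7 arrays of 55 to 250 cells) and cells cut at random from the ventral lumbar cord (MIX; 8 arrays of 95 to 187 cells), which served as control samples. The dCINs and MNs were filled by a fluorescent dextran put on their cut axons, so a sample held the cells that the tracer had reached, and the MIX samples could hold both kinds of cell. The labels give all samples 1 protocol, with incubation of the cut cord, snap freezing and 2 rounds of RNA amplification.

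Voltage-gated sodium channels open on depolarization and carry the inward current of the action potential. A single large alpha subunit forms the pore and the voltage sensors, and small beta subunits with an immunoglobulin-like domain modify gating and placement in the membrane. In central neurons the channels are gathered at the axon initial segment and the nodes of Ranvier, where spikes start and are renewed. Scn1a, Scn2a, Scn3a and Scn8a (Nav1.1, Nav1.2, Nav1.3 and Nav1.6) are the alpha subunits of the central nervous system, whereas Scn9a, Scn10a and Scn11a (Nav1.7, Nav1.8 and Nav1.9) are best known from sensory and other peripheral neurons. Nav1.2 and Nav1.3 are prominent early in life, and Nav1.6 takes the place of Nav1.2 at many initial segments and nodes during maturation.

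The genes of the central alpha subunits differ in the base composition around their starts, which is shown here for Scn8a, Scn2a and Scn3a, 3 of the subunits described most closely below. In the RefSeq promoters of build GRCr8, 7 of the 8 members, all but Scn1a, had an entry of 300 bases. The windows of Scn8a (chr7:133860977-133861276, plus strand), Scn2a (chr3:70710706-70711005, plus strand) and Scn3a (chr3:70666149-70666448, minus strand) read as follows, 5′ to 3′, with every CG dinucleotide in capitals.
Scn8a: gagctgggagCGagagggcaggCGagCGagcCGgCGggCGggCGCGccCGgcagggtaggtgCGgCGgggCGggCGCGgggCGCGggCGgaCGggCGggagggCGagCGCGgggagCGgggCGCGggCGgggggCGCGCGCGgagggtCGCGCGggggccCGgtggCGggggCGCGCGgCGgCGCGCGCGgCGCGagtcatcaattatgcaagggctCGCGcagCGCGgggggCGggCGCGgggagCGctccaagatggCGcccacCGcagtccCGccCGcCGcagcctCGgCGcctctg
Scn2a: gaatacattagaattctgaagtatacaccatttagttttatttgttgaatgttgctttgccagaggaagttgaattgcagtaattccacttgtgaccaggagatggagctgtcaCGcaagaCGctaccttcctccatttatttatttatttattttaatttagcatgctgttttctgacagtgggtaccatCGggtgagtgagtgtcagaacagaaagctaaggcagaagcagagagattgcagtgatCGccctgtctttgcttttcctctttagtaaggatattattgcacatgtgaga
Scn3a: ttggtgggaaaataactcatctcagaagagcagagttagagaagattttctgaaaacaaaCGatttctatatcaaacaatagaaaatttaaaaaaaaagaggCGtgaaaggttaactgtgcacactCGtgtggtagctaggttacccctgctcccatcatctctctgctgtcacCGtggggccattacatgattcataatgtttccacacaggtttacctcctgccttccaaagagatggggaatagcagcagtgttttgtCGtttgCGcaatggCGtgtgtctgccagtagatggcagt
The Scn8a window had a GC content of 84.7% and 60 CG dinucleotides, and 99.9% of all 33469 promoters had fewer. The Scn2a window had 39.3% GC and 4 CG dinucleotides, the Scn3a window 43.3% and 7, and the median promoter 51.7% and 7. Among the 4 other members with an entry, GC content ran from 39.0% (Scn2b) to 56.0% (Scn9a) and CG dinucleotides from 2 to 11. No window held the letters TTCAGCACC or GGACAGCGC, the left and right parts of the RE1 motif bound by the neuronal gene repressor REST, or TATAAA, on either strand. Of all promoters, 0.356%, 0.415% and 14.2% held them, and the absence of a match says only that these letters are not in these windows. In the RefSeq gene table of GRCr8, Scn3a, Scn2a, Scn1a and Scn9a lie near each other on a chromosome, and Scn10a and Scn11a on another.

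The labels of the cells were checked against marker genes. The summed signal of the motor neuron markers was 2738 to 4419 in dCINs, 10925 to 12920 in MNs and 5258 to 10229 in MIX. The inhibitory neuron marker Slc32a1, the vesicular GABA and glycine transporter, had 2 probe sets. Their sum was 387 to 804, 72.1 to 400 and 241 to 616, so dCINs and MNs overlapped. Slc32a1 AF030253_at was higher in dCINs than in MNs (log2 difference 2.40, limma adjusted p of 0.00266). Slc32a1 rc_AA996551_s_at was not called (0.090, limma adjusted p of 0.760). Of 7 listed astrocyte genes 4 were measured under their names, and Gfap, the glial fibrillary acidic protein, was not among them. The paper reports Gfap at very low intensity, without a change between MNs and dCINs. The measured astrocyte markers summed to 5609 to 8747 in dCINs, 3552 to 6240 in MNs and 3641 to 9039 in MIX, ranges that overlap. Most of this sum was Apoe X04979_at, the lipid carrier apolipoprotein E. It was higher in dCINs than in MNs (log2 difference 0.69, limma adjusted p of 0.0125). The other Apoe probe set, S76779_s_at, and S100b also had higher means in dCINs (0.79 and 0.53) but were not called (limma adjusted p of 0.118 and 0.170). The 5 probe sets of the glutamate transporters Slc1a2 and Slc1a3 had differences of -0.07 to 0.38 with adjusted p of 0.721 to 0.943. Oligodendrocyte markers overlapped in all groups (372 to 787), Itgam, a microglial integrin, was low in all (14.1 to 27.5), and no marker was at the floor of the table on any array. Markers of sensory neurons, glutamatergic neurons and Schwann cells were not measured under these names. The part of other cells in the values below was not tested, and in RNA pooled from many cells, fewer cells of a type and less RNA per cell cannot be told apart. Some arrays stood apart over all probe sets. The deviations of MN 1 and MN 2 from their group mean were correlated at r = 0.83 and those of dCIN 1 and MN 1 at r = 0.53. MN 1 and MN 2 were also the samples of most cells (250 and 230), where the other MNs had 55 to 115. MIX 5 and MIX 7 deviated together (r = 0.33) and against MIX 3 (r = -0.67 and r = -0.57).

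The dCINs were compared with the MNs to find subunits that differ between the interneurons that couple the sides of the cord and the output neurons. A probe set was called where its limma p, adjusted over all probe sets, was under 0.1. Of the 11 sodium channel probe sets 0 were called, against 3.81% of all probe sets. At an unadjusted p under 0.05 there were 3, Scn1a, Scn8a (AF049239_s_at) and Scn9a (U79568_s_at), all with higher means in dCINs, where 10.9% of all probe sets reached that level. The difference was positive for 8 probe sets and negative for 3, with a median log2 difference of 0.18 against -0.03 over all probe sets. The MIX arrays were set against both groups as a picture of the surrounding ventral horn. Against dCINs, 0 of 11 were called (0.476% of all probe sets) and 4 reached an unadjusted p under 0.05 (7.14% of all), Scn1a, Scn2a, Scn3a (Y00766_g_at) and Scn9a (U79568_s_at), all with lower means in MIX. Against MNs, 0 of 11 were called (0.952% of all) and 2 reached it (11.8% of all), both of Scn3a and both lower in MIX. The comparisons share arrays, so their differences are not independent of each other.

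**Figure D1:**
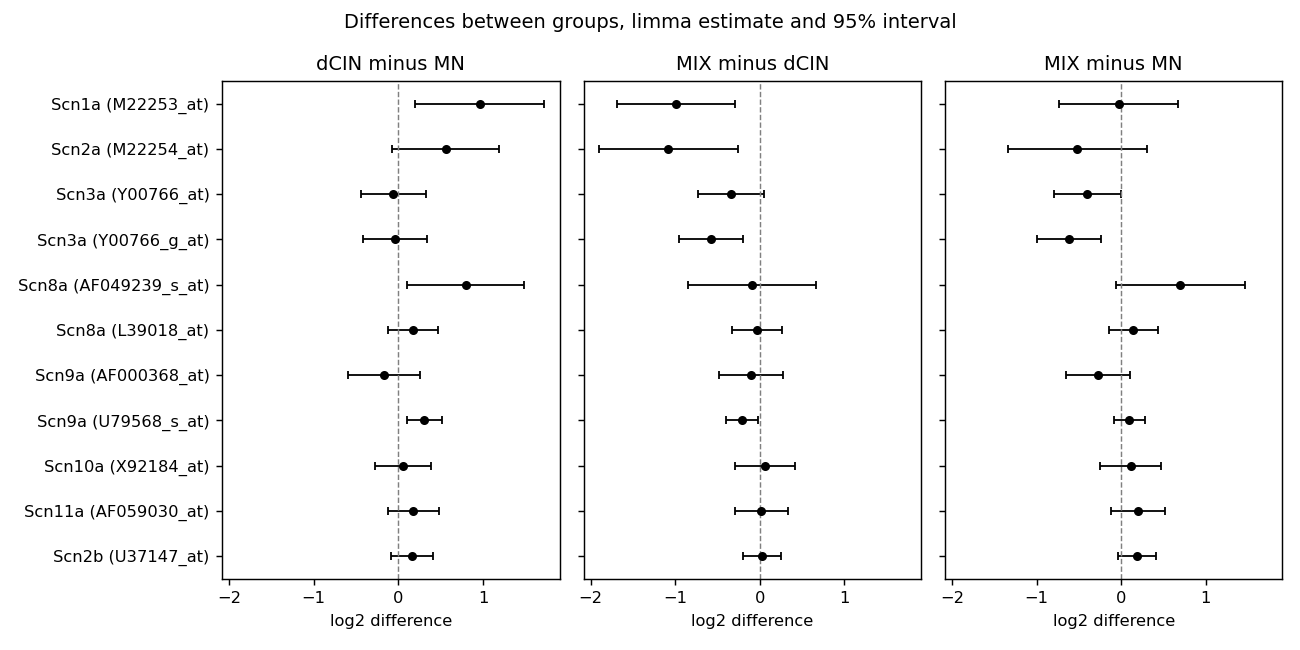
Log2 differences between groups for the 11 sodium channel probe sets, with points for the limma estimate and bars for its 95% interval, for dCIN minus MN (14 arrays), MIX minus dCIN and MIX minus MN (22 arrays each). The intervals of Scn1a, Scn8a (AF049239_s_at) and Scn9a (U79568_s_at) lie above 0 for dCIN minus MN, and both Scn3a probe sets lie below 0 for MIX minus MN, but no adjusted p was under 0.1.

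Scn1a encodes Nav1.1, which is known for the firing of inhibitory interneurons and is also found in motor neurons. The signal of its probe set M22253_at, in the intensity units of the deposited table, was 104 at the lowest, 177 at the median and 247 at the highest in dCINs (182 ± 48.4, SD, n = 7). In MNs these values were 29.1, 81.0 and 210 (108 ± 66.2, n = 7), and in MIX 45.9, 97.2 and 179 (96.0 ± 41.8, n = 8). The dCINs and MNs overlapped, since MN 3 (210) and MN 4 (188) stood among the dCINs, while the other 5 MNs lay below the lowest dCIN. The log2 difference between dCINs and MNs was 0.96 ± 0.36 (SE), or 1.94-fold with a 95% interval of 1.14 to 3.30, with a limma adjusted p of 0.271. It was called without MN 3 (1.16, adjusted p of 0.0731) and with array weights (0.86, adjusted p of 0.0934). Without MN 2, the array of lowest signal (29.1), it was 0.69, and without dCINs and MNs numbered 1 and 2 it was 0.57. All of these were higher in dCINs, and whether the difference was called turned on MN 3 and on the weighting of arrays.

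Between MIX and dCINs the Scn1a log2 difference was -0.99 ± 0.34 (SE), with a limma adjusted p of 0.370. Of the 8 MIX arrays, 5 were below the lowest dCIN and none was above the highest. Between MIX and MNs it was -0.03, with a 95% interval of -0.73 to 0.67, which still allows a MIX signal of 0.603 to 1.59 times that of the MNs. Without MIX 5 and MIX 7 these values were -0.75 and 0.21. With all arrays the order of the group means was dCIN, MN and MIX, but the median was higher in MIX (97.2) than in MN (81.0). MN and MIX did not differ beyond their spread.

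**Figure D2:**
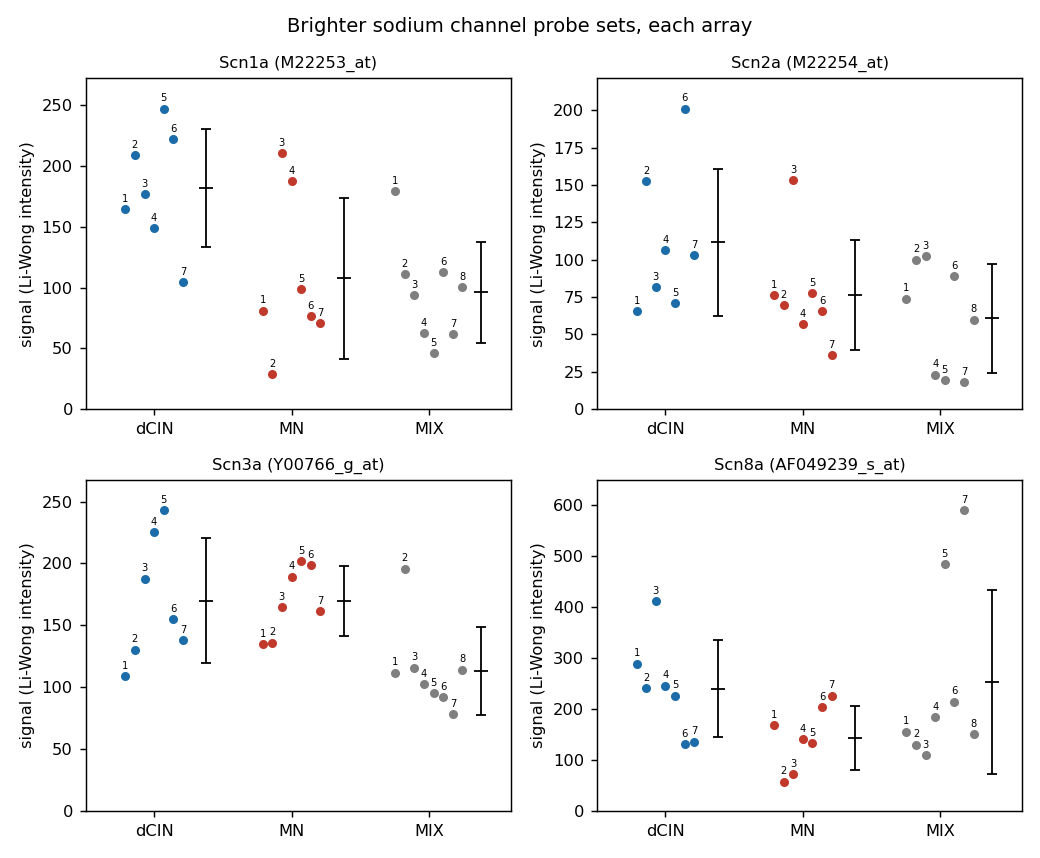
Signal (Li-Wong intensity, linear axis from 0) of the 4 sodium channel probe sets with a mean log2 signal of at least 6, by group, with 1 point per array marked by its number and bars for the mean ± SD. Scn1a is above 100 in all 7 dCINs and below 100 in 5 of 7 MNs, and MIX 5 and MIX 7 are low for Scn2a and high for Scn8a.

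Scn2a encodes Nav1.2, the channel of unmyelinated axons and immature initial segments. The lowest, median and highest signals of M22254_at were 65.8, 103 and 201 in dCINs (112 ± 49.1, SD, n = 7) and 36.1, 69.5 and 153 in MNs (76.5 ± 36.7, n = 7). In MIX they were 18.4, 66.9 and 103 (60.8 ± 36.3, n = 8). The ranges of dCINs and MNs overlapped, with 1 dCIN above all MNs and 3 MNs below all dCINs. The log2 difference between dCINs and MNs was 0.56 ± 0.30 (SE), with a 95% interval of -0.07 to 1.19 and a limma adjusted p of 0.566.

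The MIX arrays were uneven for Scn2a. MIX 4, MIX 5 and MIX 7 had signals of 23.1, 19.3 and 18.4, below every dCIN and MN array, and the other 5 had 59.9 to 103, inside the range of the MNs. Between MIX and dCINs the log2 difference was -1.08 ± 0.40 (SE), or 2.12-fold lower in MIX, with a limma adjusted p of 0.414, and without MIX 5 and MIX 7 it was -0.62. The difference between MIX and MNs was -0.52 with an adjusted p of 0.544, and -0.06 without MIX 5 and MIX 7. It was -0.33 without MIX 5, -0.32 without MIX 7 and -0.33 without MN 3. On the same 3 arrays the 3′ control probe set of Gapdh, a glycolytic enzyme, had its lowest signals of all 22 arrays (256, 197 and 174, against 325 to 1501 on the others). Other control probe sets were mixed. The Gapdh probe set of the middle region was highest of all arrays in MIX 7 (318), and the 3′ probe set of beta-actin was highest in MIX 4 (992) and 529 in MIX 5. The 5′ and middle probe sets of beta-actin were lowest of all arrays in MIX 5 (37.2 and 68.6). Over the 22 arrays the log2 signal of Scn2a followed that of the Gapdh control with r = 0.57, whereas r was -0.07 for Scn1a. The part of RNA quality or amount in the Scn2a values was not tested.

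Scn3a encodes Nav1.3, the embryonic and neonatal alpha subunit. Its brighter probe set Y00766_g_at had a lowest, median and highest signal of 109, 155 and 243 in dCINs (170 ± 50.5, SD, n = 7) and of 135, 165 and 202 in MNs (170 ± 27.9, n = 7). In MIX the values were 78.4, 107 and 196 (113 ± 35.7, n = 8). The MNs lay wholly inside the range of the dCINs, and 7 of 8 MIX arrays lay below the lowest MN. The exception was MIX 2 with 196. Between dCINs and MNs the log2 difference was -0.04, with a 95% interval of -0.41 to 0.34 and a limma adjusted p of 0.956. In folds this interval runs from 0.750 to 1.27, the narrowest among the 4 brighter probe sets.

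Toward MIX the Scn3a difference was -0.58 ± 0.18 (SE) from dCINs and -0.62 ± 0.18 (SE) from MNs on the log2 scale, 1.50-fold and 1.53-fold lower in MIX. The limma adjusted p was 0.270 and 0.191. Without MIX 2 the same differences were -0.70 with an adjusted p of 0.0952 and -0.74 with an adjusted p of 0.0407, and both were then called. The difference from MNs was also called with array weights and all arrays kept (-0.62, adjusted p of 0.0445). Without MIX 5 and MIX 7 they were -0.47 and -0.50. The dimmer probe set Y00766_at, with a mean of 35.2 in dCINs, 35.7 in MNs and 27.7 in MIX, had differences of -0.34 and -0.40 (adjusted p of 0.798 and 0.412), in the same direction, the first being -0.20 without dCIN 5. Over the 22 arrays the log2 signals of these Scn3a probe sets were correlated at r = 0.76, and their differences between dCINs and MNs were -0.02 apart (two-sided exact permutation test over 3432 splits of the 14 arrays, p = 0.900).

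Scn8a encodes Nav1.6, the main channel of mature nodes and initial segments. Its probe set AF049239_s_at had a lowest, median and highest signal of 131, 241 and 412 in dCINs (240 ± 95.6, SD, n = 7) and of 57.6, 141 and 226 in MNs (143 ± 62.9, n = 7). In MIX the values were 110, 170 and 591 (253 ± 181, n = 8). The dCINs and MNs overlapped between 131 and 226, with 5 dCINs above all MNs and 2 MNs (MN 2 and MN 3) below all dCINs. The log2 difference was 0.79 ± 0.33 (SE), or 1.73-fold with a 95% interval of 1.07 to 2.80, with a limma adjusted p of 0.365. Without dCINs and MNs numbered 1 and 2 it was 0.54.

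The same Scn8a probe set was very uneven in MIX, where MIX 5 and MIX 7 had 485 and 591, above every other array, and the remaining 6 had 110 to 215. These are arrays on which Scn2a and the 3′ Gapdh control were lowest. Over the 22 arrays the log2 signal of the Scn8a probe set ran against the Gapdh control (r = -0.68) and against Scn2a (r = -0.54), a description over arrays that share their normalization. The log2 difference between MIX and MNs was 0.70 with a 95% interval of -0.06 to 1.46 and a limma adjusted p of 0.412, and it was 0.25 without MIX 5 and MIX 7. Between MIX and dCINs it was -0.09, and -0.54 without them. The part of these arrays' RNA in the Scn8a values was not tested.

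The other Scn8a probe set, L39018_at, was dim, with means ± SD of 49.1 ± 11.0 over 7 dCINs, 43.0 ± 6.14 over 7 MNs and 48.0 ± 11.0 over 8 MIX arrays. Its log2 difference between dCINs and MNs was 0.18, with a limma adjusted p of 0.716, and it was 0.082 without dCIN 5 and 0.11 without MN 3. Its log2 signal followed that of AF049239_s_at over the 22 arrays (r = 0.72), and MIX 7 was again highest (71.7). The difference between dCINs and MNs was larger by 0.62 in AF049239_s_at, which an exact permutation test did not separate from 0 (two-sided p = 0.0670, 0.101 adjusted over 3 pairs of probe sets). The 2 probe sets of Scn8a may be set side by side only as differences, since signals of different probe sets have no common scale.

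**Figure D3:**
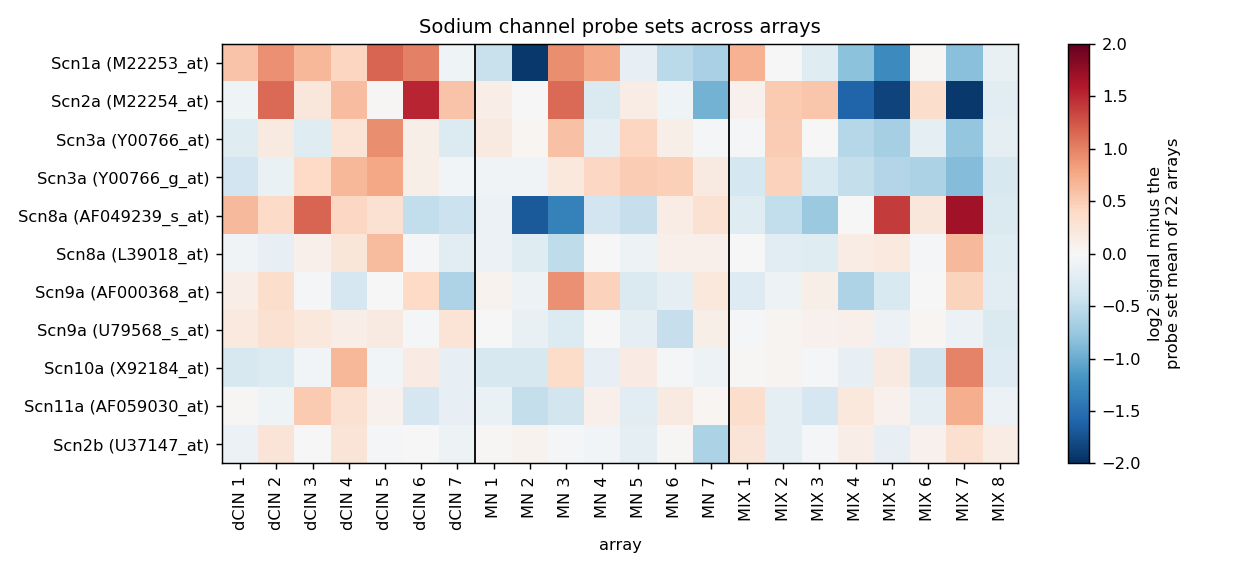
Log2 signal of each sodium channel probe set minus its mean over the 22 arrays, with arrays in columns by group and number, and probe sets in rows. MN 2 is lowest for Scn1a, MIX 4, MIX 5 and MIX 7 are lowest for Scn2a, and MIX 5 and MIX 7 are highest for Scn8a (AF049239_s_at).

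Of the alpha subunits known from the periphery, Scn9a (Nav1.7) gave the smallest p of the family between dCINs and MNs. In U79568_s_at the lowest, median and highest signals were 27.9, 32.9 and 35.4 in dCINs (32.6 ± 2.46, SD, n = 7) and 20.9, 26.0 and 31.1 in MNs (26.5 ± 3.52, n = 7). In MIX they were 23.5, 28.8 and 30.9 (28.2 ± 2.54, n = 8). All dCINs but dCIN 6 (27.9) were above every MN. The log2 difference was 0.31 ± 0.10 (SE), or 1.24-fold with a 95% interval of 1.07 to 1.43, with a limma adjusted p of 0.145. It was called when the MIX arrays entered the fit (adjusted p of 0.0750), when array medians were subtracted (0.0935), when arrays were weighted (0.0650) and with the arrays numbered 1 and 2 as a covariate (0.0804), and otherwise not. Between MIX and dCINs the difference was -0.21 with an adjusted p of 0.600. The signal was low in the table, where array medians were 43.5 to 50.9. With no detection calls in the table, a low signal cannot be told from background.

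The second Scn9a probe set, AF000368_at, did not share the higher mean of dCINs. Its mean ± SD was 27.0 ± 6.44 over 7 dCINs, 30.7 ± 9.85 over 7 MNs and 25.0 ± 5.68 over 8 MIX arrays, with a log2 difference between dCINs and MNs of -0.17 and a limma adjusted p of 0.786. It was -0.043 without MN 3, the array of highest signal (50.1), and -0.070 without dCIN 7, and between MIX and MNs it was -0.27, or -0.14 without MN 3. Over the 22 arrays the Scn9a probe sets were not correlated (r = -0.12). Their differences between dCINs and MNs were 0.48 apart (exact permutation test, two-sided p = 0.0507, 0.101 adjusted over the 3 pairs), so the higher Scn9a signal of dCINs was seen in 1 of 2 probe sets.

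Scn10a (Nav1.8) and Scn11a (Nav1.9), the tetrodotoxin-resistant channels of sensory neurons, gave small differences against their spread. For Scn10a (X92184_at) the means were 27.9 ± 7.27 for 7 dCINs, 26.6 ± 4.83 for 7 MNs and 29.6 ± 10.5 for 8 MIX arrays (SD), the last raised by MIX 7 (54.3). Its log2 difference between dCINs and MNs was 0.05, with a 95% interval of -0.28 to 0.38. For Scn11a (AF059030_at) the means were 58.7 ± 12.1, 51.7 ± 8.63 and 60.1 ± 15.9, and the log2 difference between dCINs and MNs was 0.18 with an interval of -0.13 to 0.48, and 0.099 without dCIN 3 or 0.12 without MN 2. Scn11a was also highest in MIX 7 (92.5), and its log2 signal followed both Scn8a probe sets over the 22 arrays (r = 0.79 and r = 0.75). The direction of both genes between MIX and dCINs turned when MIX 5 and MIX 7 were left out (to -0.12 for Scn10a and -0.09 for Scn11a).

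Scn2b encodes the beta-2 subunit, which is bound to the alpha subunit by a disulfide bridge. Its probe set U37147_at had means of 42.9 ± 4.81 for the 7 dCINs, 38.7 ± 5.75 for the 7 MNs and 43.8 ± 5.63 for the 8 MIX arrays (SD). The groups overlapped, with MN 7 (26.7) lowest of all arrays. The log2 difference between dCINs and MNs was 0.16, with a 95% interval of -0.09 to 0.40 and a limma adjusted p of 0.715, and that between MIX and MNs was 0.19 with an interval of -0.04 to 0.41 and an adjusted p of 0.437. Without MN 7 these differences were 0.071 and 0.099.

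**Figure D4:**
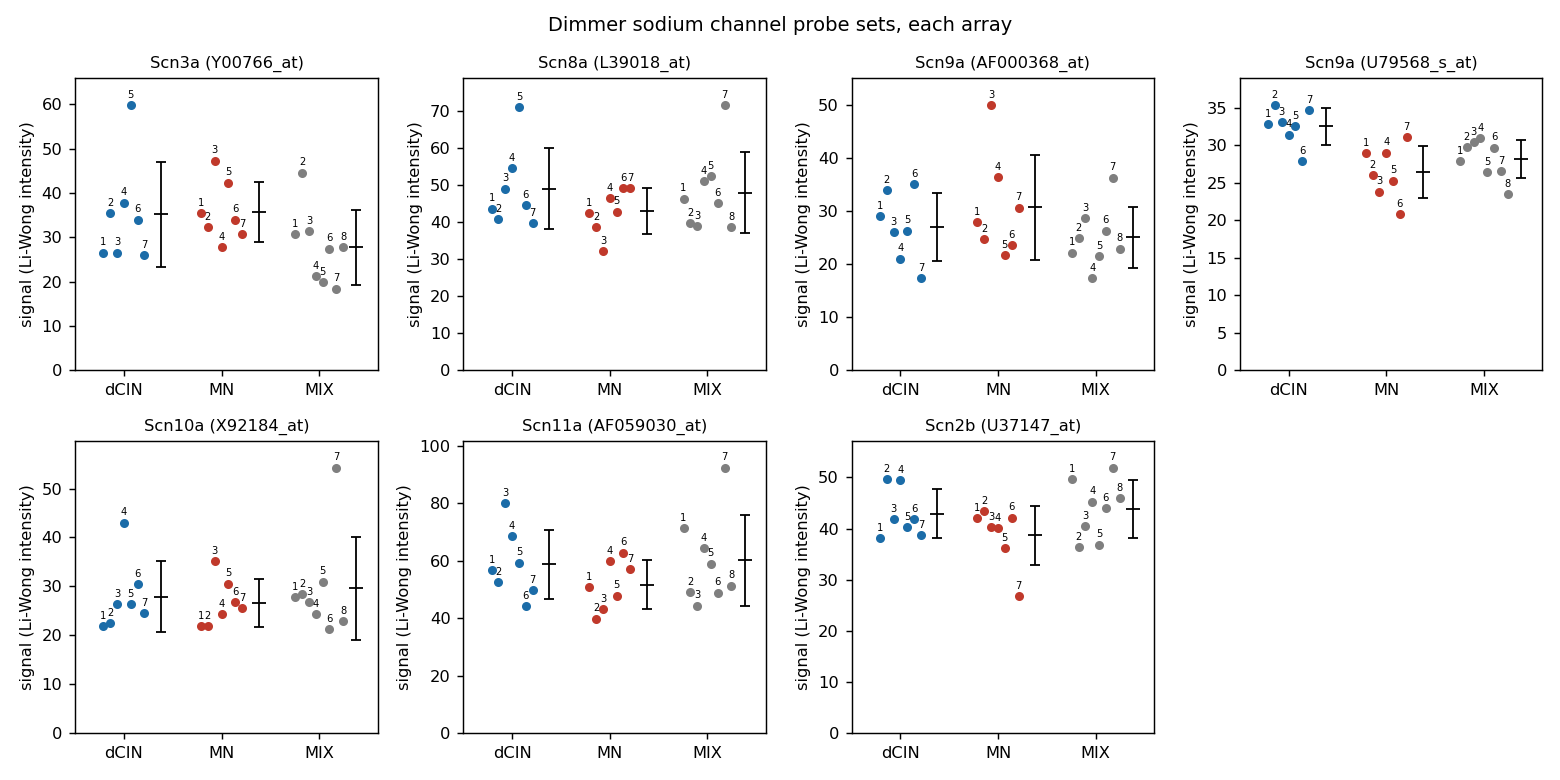
Signal (Li-Wong intensity, linear axes from 0) of the 7 sodium channel probe sets with a mean log2 signal under 6, by group, with 1 point per array marked by its number and bars for the mean ± SD. Of the dCINs, 6 of 7 are above every MN for Scn9a (U79568_s_at), and MIX 7 is highest for Scn8a (L39018_at), Scn10a, Scn11a and Scn2b.

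By mean brightness, 4 of the 11 probe sets (Scn1a, Scn2a, Scn3a Y00766_g_at and Scn8a AF049239_s_at) had a mean log2 signal of at least 6 over the 22 arrays and 7 did not. This mean takes in the groups compared, and Scn2a passed narrowly (6.12). Only these 4 were used to look for probe sets of like pattern, by Pearson's correlation of log2 signals over the 22 arrays. Scn1a was most like Atp2a2, the calcium pump of the endoplasmic reticulum (r = 0.85), Prkcb, a protein kinase C (0.83), and Mmd (0.81). Scn2a was most like a probe set without a symbol (0.80), followed by Atp1b1, the beta-1 subunit of the sodium pump (0.79), and another without a symbol (0.79). Scn3a (Y00766_g_at) was most like Chrna3, a nicotinic receptor subunit (0.79), and P2rx2, an ATP-gated channel (0.60), beside 1 without a symbol. Scn8a (AF049239_s_at) was most like Kcnt1, a sodium-activated potassium channel (0.95), Gucy2f, a guanylate cyclase (0.93), and Nxph3, a neurexophilin (0.91). Among the members, Scn1a and Scn2a were correlated at 0.62. These values are descriptions over 22 arrays of 3 groups, and arrays that stand apart enter all of them.

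Other genes of sodium entry and spike repair were taken from lists. A listed gene counts as measured where the platform annotation gives its symbol. Of 7 other sodium channel subunits 3 were measured (Scn4a of skeletal muscle, the atypical Scn7a and the leak channel Nalcn), with 0 of 6 probe sets called in each comparison, where 3.81%, 0.476% and 0.952% of all probe sets were called between dCINs and MNs, MIX and dCINs, and MIX and MNs. An unadjusted p under 0.05 was reached by 3 of the 6 between MIX and MNs (11.8% of all probe sets), with log2 differences of -0.59 for Nalcn AF078779_at, -0.98 for Scn4a M26643_g_at and -0.37 for Scn7a S75991_at (limma adjusted p of 0.345, 0.412 and 0.412). The second probe set of each of these genes had a positive difference. It was 0.13 for Nalcn AF078779_g_at, 0.25 for Scn4a M26643_at and 0.034 for Scn7a rc_AA925248_at (limma adjusted p of 0.844, 0.438 and 0.955). Among the 6 probe sets, the smallest p between dCINs and MNs belonged to Scn4a M26643_at (log2 difference 0.28, limma adjusted p of 0.591) and Nalcn AF078779_g_at (0.47, adjusted p of 0.610). Their second probe sets went the other way, with -0.47 for Scn4a M26643_g_at and -0.24 for Nalcn AF078779_at (limma adjusted p of 0.732 for both). Of 19 genes of the axon initial segment and node 4 were measured, and 0 of 4 probe sets were called in any comparison. The cell adhesion molecules Cntn1 and Cntn2 had log2 differences between dCINs and MNs of -0.24 and -0.20 (adjusted p of 0.618 and 0.669). Of 7 sodium pump genes 4 were measured on 6 probe sets, with 0 called, and Atp1b1 rc_AI112173_at had the smallest p (0.33, adjusted p of 0.365). Of 9 epithelial and acid sensing sodium channel genes 4 were measured on 5 probe sets, again with 0 called.

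Among the repolarizing potassium channels, which end the spike that sodium channels start, 11 of 17 listed genes were measured on 21 probe sets. Between dCINs and MNs, 1 was called higher and 1 lower in dCINs, against 3.81% of all probe sets called, and the median log2 difference was -0.02. Kcnc1 (Kv3.1), which speeds repolarization in fast-spiking neurons, was higher in dCINs, with 271 ± 86.9 against 145 ± 39.7 (SD, n = 7 each), a log2 difference of 0.88 ± 0.23 (SE) and a limma adjusted p of 0.0493. Kcna1 (Kv1.1), a channel of the juxtaparanode that limits repetitive firing, was lower in dCINs on X12589cds_s_at, with 53.5 ± 7.12 against 81.0 ± 8.92, a difference of -0.60 ± 0.11 (SE) and an adjusted p of 0.00325. The highest dCIN (62.5) lay below the lowest MN (72.0). The other Kcna1 probe set, M26161_at, had a difference of -0.70 and a limma adjusted p of 0.111, and Kcna4 M32867_at 0.71 and 0.125. The other Kcna4 probe set, X16002cds_s_at, went the other way (-0.12, limma adjusted p of 0.724). In MIX, Kcna1 X12589cds_s_at was lower than in MNs by a log2 difference of -0.53 ± 0.14 (SE), with a limma adjusted p of 0.0982. It was the only 1 of the 21 called between MIX and MNs, against 0.952% of all probe sets. Between MIX and dCINs 0 of the 21 were called, against 0.476% of all.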

How the data were processed

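Gene expression of laser microdissected spinal cord cells was measured on 22 Affymetrix RN_U34 arrays. The deposited intensity values are Li-Wong summaries on a linear scale. Before summarizing, the authors subtracted a Global background from the perfect match probes and applied a quantile linear transformation, then quantile projection, to the arrays together, and afterwards they took off a minimum common to all. The labels name the affy package. Projection gives all arrays like distributions, so a shift shared by most genes would not be seen. The table holds 1050 probe sets, 961 with 1 gene symbol, 7 with several and 82 without. Probe-level values were not used here. Precision depends on how many arrays a group has and on the spread between them.

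Summaries were log2-transformed and compared with limma 3.58.1 in R 4.3.3 (lmFit, eBayes), dCINs against MNs over 14 arrays and MIX over 22 arrays with 3 group means. P-values were adjusted by Benjamini-Hochberg over all 1050 probe sets and called at under 0.1. Intervals are 95%. Differences between probe sets of a gene were compared by exact permutation tests. The fits were first tested on simulated data. Named were all probe sets of the 8 genes, for the brighter ones the 3 probe sets of most similar pattern, and from each list those called and up to 2 with the smallest p in the dCIN and MN comparison. A few further probe sets of the lists were named for comparison. The members, lists and tests were chosen with earlier results of these data known. Alternatives covered scaling, filters, offsets, weighted arrays, array numbers as a block, cell number as a covariate and leaving out arrays. No 2 arrays were duplicates (highest r 0.982).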

Additional observations from a re-analysis of the deposited data

Results flagged for a closer look

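In 3 of the 33 combinations of a sodium channel probe set and a group, 1 array lay far from the rest of its group on the log2 scale by Dixon's test at the 95% level, where chance alone gives about 1 in 20, or 1.65 of 33. Scn3a Y00766_g_at was 195.8 in MIX 2, against 78.4 to 116 on the other MIX arrays. Scn10a was 54.3 in MIX 7, against 21.2 to 31.0, and Scn2b was 26.7 in MN 7, against 36.2 to 43.4 on the other MN arrays.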

How the results depend on the processing

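Over 33 differences (11 probe sets in 3 comparisons) and all settings, 836 of 892 values kept their direction and their side of the threshold, 9 came under an adjusted p of 0.1 and 47 turned direction, each cause not tested. Deviations of same-numbered dCINs and MNs correlated at r = -0.19 to 0.53, and 2 of 7 dCINs were closest to their own number. Arrays numbered 1 and 2 were also alike across numbers, with r = 0.50 for dCIN 1 and MN 2, 0.43 for dCIN 2 and MN 1, and 0.46 for dCIN 1 and dCIN 2. The 3′ beta-actin control was lowest on arrays 1 and 2 of every group (164 to 276) and 325 or more on the others. What these arrays share was not tested. The number as a replicate block left the number of called sodium channel probe sets at 0 in all comparisons and turned Scn8a L39018_at between MIX and dCINs (0.0072). Between dCINs and MNs the number called was 1 with all 22 arrays, 1 with array medians subtracted, 1 with arrays 1 and 2 as a covariate, 2 with array weights, and 0 to 1 when each array was left out. Between MIX and MNs it was 1 with array weights, and in both MIX comparisons 0 to 1 when each array was left out. Over all 1050 probe sets, 40 were called between dCINs and MNs, 76 with array weights and 83 with arrays 1 and 2 as a covariate, and 10 and 33 between MIX and MNs without and with weights.

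Differences near 0 turned. With quantile normalization Scn8a AF049239_s_at between MIX and dCINs was 0.0036 and Scn1a between MIX and MNs 0.011. With array weights Scn10a, Scn11a and Scn2b between MIX and dCINs were -0.11, -0.11 and -0.038, and Scn8a L39018_at, Scn10a and Scn11a between MIX and MNs were -0.053, -0.053 and -0.0081. With cell number as a covariate Scn10a between dCINs and MNs was -0.022, Scn8a AF049239_s_at between MIX and dCINs 0.30 and Scn2b -0.12. Without MN samples of over 200 cells Scn10a between dCINs and MNs was -0.054. In settings chosen after seeing the data, without dCINs and MNs 1 and 2, Scn3a Y00766_g_at was 0.024, and without MIX 5 and MIX 7, Scn10a and Scn11a between MIX and dCINs were -0.12 and -0.093, and Scn1a and Scn10a between MIX and MNs 0.21 and -0.064.

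Leaving out each array in turn gave, between dCINs and MNs, -0.20 to 0.013 for Scn3a Y00766_at, -0.13 to 0.062 for Y00766_g_at and -0.059 to 0.12 for Scn10a. Between MIX and dCINs it gave -0.31 to 0.053 for Scn8a AF049239_s_at, -0.12 to 0.061 for L39018_at, -0.073 to 0.17 for Scn10a, -0.075 to 0.098 for Scn11a and -0.0081 to 0.065 for Scn2b. Between MIX and MNs it gave -0.30 to 0.17 for Scn1a and -0.021 to 0.18 for Scn10a.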
